A study of Mus musculus with 2 samples.

Results

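The inhibin, activin and follistatin system was followed here through 10 genes: the hormone subunits Inha, Inhba and Inhbb, the extracellular antagonists Fst and Grem1, the inhibin co-receptors Tgfbr3l and Tgfbr3, and the activin receptors Acvr2a, Acvr2b and Acvr1b. They were matched by gene symbol and chosen with earlier results of these data known. All 10 were found among the 28693 genes of the deposited table. The cells came from pituitaries of male C57BL/6 mice, housed singly and 7 weeks old, with no other treatment or genotype. The glands of 6 animals were dispersed as 2 pools, so each of the 2 libraries averages 3 animals and the spread between single mice cannot be seen. Females, other ages and a second condition were not analysed here.

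Inhibins and activins are dimers built from shared subunits. An alpha subunit (Inha) joined to a beta subunit (Inhba or Inhbb) makes an inhibin, and a pair of beta subunits makes an activin. In the anterior pituitary, activin made inside the gland stimulates transcription of Fshb, the gene for the beta subunit of follicle-stimulating hormone, in gonadotropes. Follistatin, the product of Fst, binds activin and blocks it. Inhibin made by the gonads competes with activin for its type II receptors with the help of co-receptors.

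Library 1 held 70813117 unique molecular identifiers (UMIs, each standing for 1 captured transcript) in 6546 barcodes, and library 2 held 78861988 in 7117. After quality filters and removal of likely doublets, 12534 cells were used, and 54 barcode sequences occurred in both libraries. Cells were clustered on marker genes that include none of the 10 genes and fell into 11 named classes, while 786 cells (6.27%) stayed unnamed. The gonadotrope-like class had 263 cells in library 1 and 282 in library 2, and the stem-like class had 183 and 181. The gonadotrope markers Fshb, Lhb, Cga and Gnrhr were all highest in the gonadotrope-like class, at 5061 ± 235, 43775 ± 1245, 127645 ± 143 and 299 ± 11.5 CPM (UMI counts scaled to a common total per class, mean ± SD, n = 2 libraries). These markers served to make the classes and are given as a description. The stem-like class also carried UMIs of hormone genes: the 7 somatotrope markers summed to 67724 and 50044 CPM there and the 7 gonadotrope markers to 5651 and 7616 CPM. P-values rest on the spread between 2 pools that remains within classes once library is taken out as a block. This spread is estimated over all classes of a fit and is not the spread between animals. They are from edgeR's quasi-likelihood test and are adjusted over all genes within each comparison by the Benjamini-Hochberg method.

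The 250 bases upstream of the RefSeq start are shown for Tgfbr3l and Grem1, which were both far higher in gonadotrope-like cells than in any other class, and for Inhbb, which had another pattern. They are on GRCm38.p6 (the mm10 assembly), written 5′ to 3′ on the strand of the gene, at chr8:4247964-4248213 (plus strand), chr2:113758649-113758898 (minus strand) and chr1:119422249-119422498 (minus strand). Capitals mark the only match among the motifs searched.
Tgfbr3l: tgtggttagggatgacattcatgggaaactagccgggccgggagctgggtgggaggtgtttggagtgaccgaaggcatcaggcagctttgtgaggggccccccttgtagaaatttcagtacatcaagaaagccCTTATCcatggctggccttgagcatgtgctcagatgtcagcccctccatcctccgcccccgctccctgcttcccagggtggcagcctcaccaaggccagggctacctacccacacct
Grem1: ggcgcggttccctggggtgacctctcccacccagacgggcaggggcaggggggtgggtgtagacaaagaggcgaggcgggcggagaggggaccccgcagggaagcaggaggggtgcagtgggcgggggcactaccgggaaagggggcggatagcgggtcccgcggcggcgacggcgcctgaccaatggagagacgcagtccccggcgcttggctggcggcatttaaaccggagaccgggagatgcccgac
Inhbb: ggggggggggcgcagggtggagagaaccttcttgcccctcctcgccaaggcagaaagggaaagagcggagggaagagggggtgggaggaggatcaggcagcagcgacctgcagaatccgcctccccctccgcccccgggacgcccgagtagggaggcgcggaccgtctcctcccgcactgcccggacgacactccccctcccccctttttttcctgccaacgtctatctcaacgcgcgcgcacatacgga
The GC content of these windows was 59.2% for Tgfbr3l, 72.0% for Grem1 and 68.0% for Inhbb. The motifs were read on both strands and named for the factors known to bind such sites. They were CAAGGTCA (Nr5a1), GTCTAGAC (Smad), TGACGTCA (cyclic AMP response) and GCGTGGGCG (Egr1), with TAATCC for Pitx factors. The last, GATAAG, stands for Gata factors. RefSeq windows were at hand for 8 of the 10 genes and for Fshb, and GATAAG on the minus strand of Tgfbr3l, printed as CTTATC, was the single match in these 9. It overlapped no other motif. Among 32851 windows of the same length, GATAAG was in 6.55%, TAATCC in 6.25%, TGACGTCA in 1.55%, CAAGGTCA in 1.33%, GCGTGGGCG in 0.536% and GTCTAGAC in 0.167%. A match describes these letters and is not evidence of binding.

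Of the hormone subunits, Inhbb, the beta B subunit, was present in 3 classes and low or undetected in the rest. It lies at chr1:119415465-119422248 (mm10, minus strand). Its level was 73.7 and 70.4 CPM in the stem-like cells of libraries 1 and 2, 43.4 and 43.3 CPM in gonadotrope-like cells and 32.1 and 36.8 CPM in endothelial-like cells. Each of the other 8 classes had at most 3.51 CPM in either library, with macrophage-like cells at 0 UMIs. Stem-like cells were above gonadotrope-like cells (72.0 ± 2.29 against 43.3 ± 0.0429 CPM, edgeR adjusted p = 1.80e-05), classes between which 51.9% of the 12476 tested genes passed. Gonadotrope-like and endothelial-like cells did not differ beyond their spread (34.4 ± 3.31 CPM in the latter, adjusted p = 0.197, with 54.6% of tested genes passing), and endothelial-like cells were above the next class, pituicyte-like (adjusted p = 0.000232), a pair of classes in which 25.9% of tested genes passed.

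Without thinning, 55.7% of stem-like cells of library 1 (exact binomial 95% interval 48.2 to 63.1) and 53.6% of library 2 (46.0 to 61.0) had an Inhbb UMI. The gonadotrope-like shares were 32.7% (27.1 to 38.7) and 35.5% (29.9 to 41.4), and the endothelial-like shares 18.5% (12.2 to 26.2) and 22.5% (16.13 to 30.02). Endothelial-like cells were shallower, with a median of 4937 and 4345 UMIs against 9819 and 10426 in gonadotrope-like cells. Somatotrope-like cells, the deepest of the classes compared here with medians of 12752 and 13726 UMIs, had an Inhbb UMI in 0.535% and 0.301% of cells, given here as the background. Intervals cover counting error only. With every cell thinned to 1000 UMIs the shares were 10.9% and 8.84% in stem-like, 4.94% and 4.26% in gonadotrope-like and 5.38% and 2.65% in endothelial-like cells. Of all Inhbb UMIs in the cells used, stem-like cells held 54.3% and 49.4%, gonadotrope-like cells 30.9% and 34.6% and endothelial-like cells 8.04% and 10.6%.

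Inhba, the beta A subunit (chr13:16011851-16031621, plus strand), was nearly restricted to stem-like cells, which held 161 of its 178 UMIs. Its level there was 24.9 CPM in library 1 and 31.0 CPM in library 2. No other class was above 4.13 CPM in either library, and the next, fibroblast-like cells, rested on 2 UMIs (27.9 ± 4.31 against 2.06 ± 2.92 CPM, adjusted p = 6.67e-05, with 28.0% of tested genes passing). In all, 5 classes had 0 Inhba UMIs. In somatotrope-like cells, 0 of 2992 and 0 of 2990 cells had an Inhba UMI, which allows a share of cells with a UMI of up to 0.100% in each library (3 counts of the total, counting error only). This limits cells with a UMI at this depth, not cells that express the gene. An Inhba UMI was found in 28.4% (22.0 to 35.5) and 29.3% (22.8 to 36.5) of stem-like cells. Among stem-like cells with an Inhba UMI, 63.5% and 69.8% also had Inhbb, against 52.7% and 46.9% of those without. The cells with Inhba were deeper, with medians of 10612 and 13386 UMIs against 8654 and 7702, and after thinning each cell to 1000 UMIs the difference was not seen in both libraries: 0 of 6 and 1 of 8 cells with Inhba had Inhbb, against 11.3% and 8.67% of those without. These are too few cells to give an order. The annotation has noncoding genes B230303A05Rik and Gm48444 on the strand opposite Inhba.

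Inha, the alpha subunit that turns a beta chain into an inhibin (chr1:75507077-75510366, plus strand), was low and spread evenly over the hormone classes. It was highest in melanotrope-like cells (22.3 and 19.5 CPM), followed by corticotrope-like (14.5 and 17.1), somatotrope-like (15.9 and 15.4), lactotrope-like (14.3 and 13.8) and gonadotrope-like cells (15.9 and 11.4 CPM). Of the 10 pairs among the 5 hormone classes, 0 passed. Over all 11 classes the level went from 20.9 ± 2.02 CPM at the top to 1.93 ± 1.52 CPM in endothelial-like cells, and no class differed from its neighbour in this order beyond the spread, while 18 of all 55 pairs passed. Stem-like cells, with most of the beta subunit UMIs, had 4.09 and 8.10 CPM of Inha, less than gonadotrope-like cells (log2 fold change of gonadotrope-like over stem-like 1.15 ± 0.30, adjusted p = 7.09e-04). By number of cells, somatotrope-like cells held 51.0% and 49.0% of the Inha UMIs and gonadotrope-like cells 7.02% and 5.39%.

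**Figure D1:**
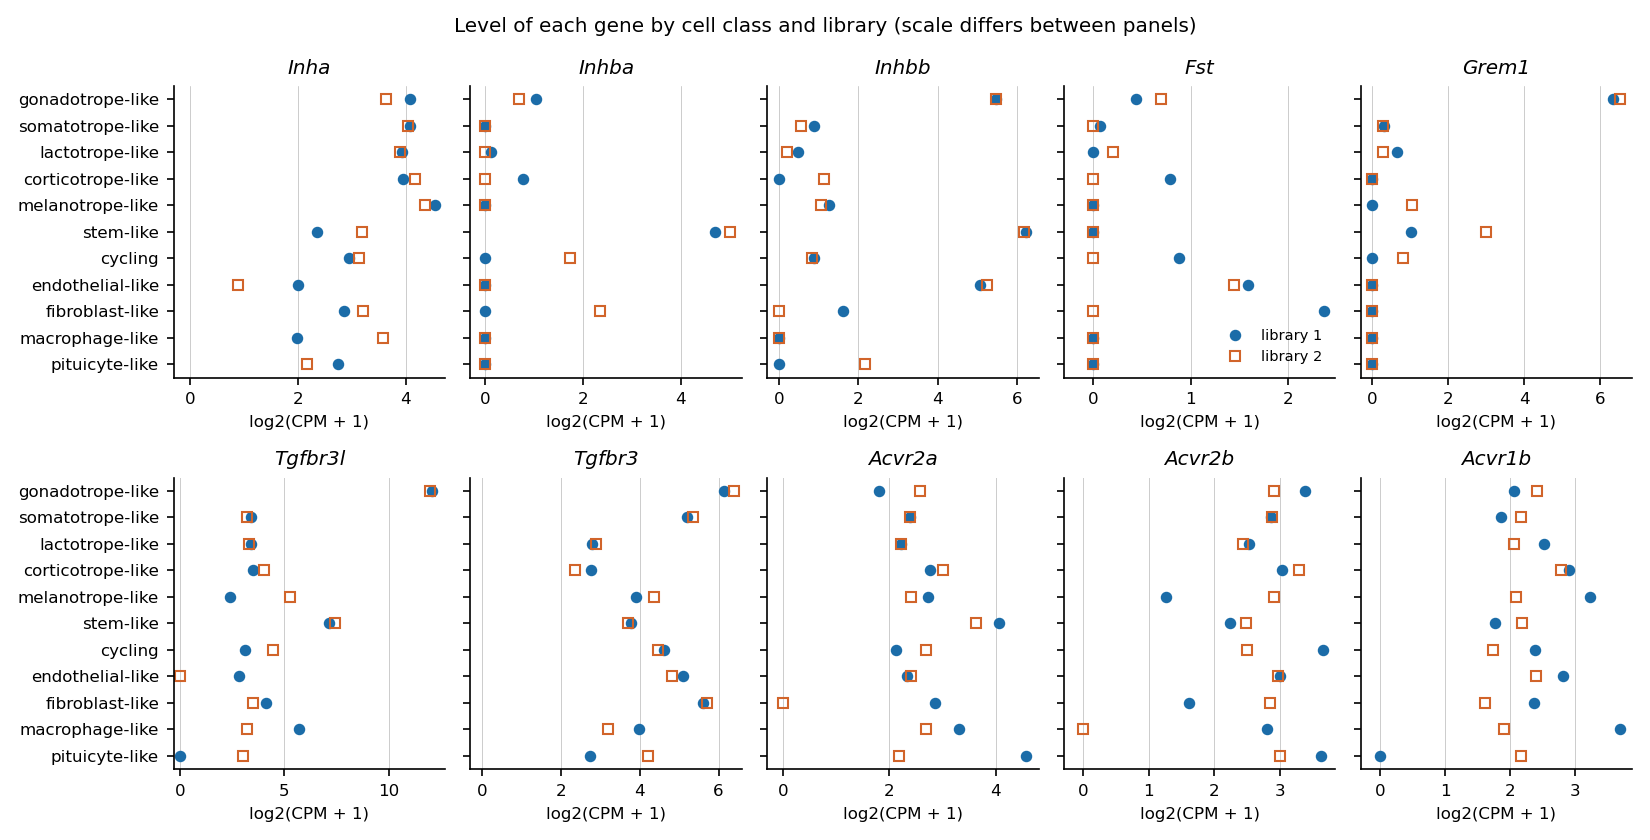
Level of each of the 10 genes (horizontal axes, log2 of CPM + 1) in each of the 11 cell classes, with filled circles for library 1 and open squares for library 2. Tgfbr3l and Grem1 stand out in gonadotrope-like cells, Inhba in stem-like cells, and Inhbb in stem-like, gonadotrope-like and endothelial-like cells, with both libraries close together there.

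Of the antagonists, Grem1, a secreted antagonist of bone morphogenetic proteins (chr2:113746164-113758646, minus strand), marked gonadotrope-like cells. Its level there was 79.3 and 89.7 CPM, and stem-like cells followed with 1.02 and 7.04 CPM (84.5 ± 7.34 against 4.03 ± 4.26 CPM, adjusted p = 1.28e-19). In corticotrope-like, endothelial-like, fibroblast-like, macrophage-like and pituicyte-like cells there were 0 Grem1 UMIs. Gonadotrope-like cells held 91.8% and 89.2% of all Grem1 UMIs. A UMI was found in 36.9% (31.0 to 43.0) and 40.4% (34.6 to 46.4) of them, and 53 and 67 cells had at least 2, up to 13 and 15 in a cell. In somatotrope-like cells the share was 0.167% in both libraries. Among gonadotrope-like cells with Grem1, 36.1% and 42.1% had an Inhbb UMI, against 30.7% and 31.0% of those without, and the median depths were 11435 and 11262 UMIs against 9174 and 10030. After thinning to 1000 UMIs the libraries differed in direction, with Grem1 in 0 of 13 and 2 of 12 cells with Inhbb, against 5.20% and 6.30% of those without. These too are few cells.

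Fst, which encodes follistatin (chr13:114452290-114458951, minus strand), was almost undetected, with 14 UMIs in all cells of the 11 classes. Endothelial-like cells had 2.00 and 1.71 CPM from 4 UMIs, fibroblast-like cells 4.14 and 0 CPM from 2 UMIs and gonadotrope-like cells 0.353 and 0.619 CPM from 3 UMIs. In stem-like cells 0 of 183 and 0 of 181 cells had an Fst UMI, which allows shares of cells with a UMI of up to 1.64% and 1.66%. Fst failed the filter on low counts. Without that filter it did not pass in gonadotrope-like against the other hormone classes (log2 fold change 2.51 ± 1.73, adjusted p = 0.370) or in stem-like against the hormone classes, where no fold change is given since the class had 0 UMIs, so differences between its classes were not detectable at this depth.

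Of the inhibin co-receptors, Tgfbr3l was the clearest gonadotrope gene among the 10. It encodes a membrane protein related to betaglycan that acts as a co-receptor for inhibin B in gonadotropes. It lies at chr8:4248214-4251423 (plus strand), where the annotation has another gene, Gm49320, on the same strand. Its level in gonadotrope-like cells was 4294 and 4020 CPM, against 140 and 170 CPM in stem-like cells, the next named class (4157 ± 194 against 155 ± 20.9 CPM, 26.8-fold, adjusted p = 3.85e-08). In each of the remaining 9 named classes it was at most 50.7 CPM in either library. An unnamed cluster of 37 and 39 cells is outside this order. Its Tgfbr3l was at 438 and 235 CPM of the unscaled total, against 186 and 230 in stem-like cells on that scale, and its Lhb at 5034 and 2224. A Tgfbr3l UMI was found in 260 of 263 and 279 of 282 gonadotrope-like cells, 98.9% in each library, and after thinning to 1000 UMIs still in 90.9% (86.7 to 94.1) and 94.3% (90.9 to 96.7). Cells varied widely: the median was 42.0 and 45.0 UMIs per cell, the 10th percentile 6.00 and 10.0, and the 90th 85.0 and 84.0. As background, 6.28% and 5.79% of somatotrope-like cells and 4.62% and 0% of endothelial-like cells had a UMI.

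**Figure D2:**
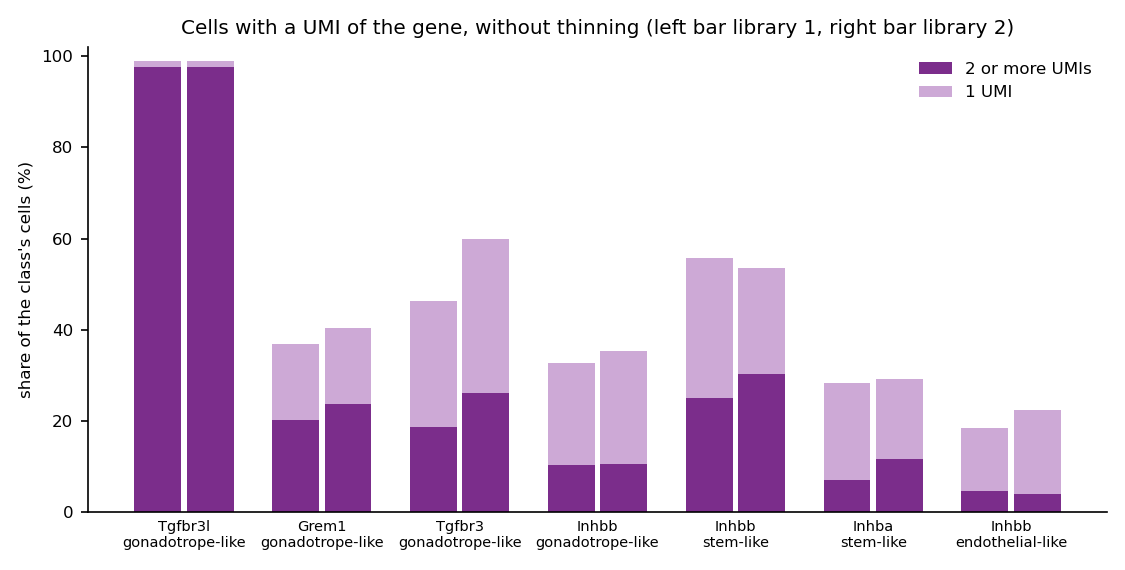
Share of a class's cells (vertical axis, percent) with 1 UMI (light) and with 2 or more UMIs (dark) of the named gene, without thinning, with library 1 as the left and library 2 as the right bar of each pair. Tgfbr3l was seen in 98.9% of gonadotrope-like cells in each library, while the other genes were seen in 18.5 to 59.9% of the cells of the class shown.

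In the 4 named classes with the most Tgfbr3l UMIs, these kept nearly the same ratio to Lhb, the beta subunit of luteinizing hormone. For each 1000 Lhb UMIs there were 96.2 and 93.7 Tgfbr3l UMIs in gonadotrope-like cells, 98.5 and 100 in somatotrope-like cells, 110 and 119 in lactotrope-like cells and 113 and 91.1 in stem-like cells. Fshb was at 110 and 122 in gonadotrope-like, 103 and 119 in somatotrope-like and 90.9 and 115 in lactotrope-like cells, and higher in stem-like cells, at 250 and 137. Tgfbr3 did not: there were 1.56 and 1.93 UMIs for each 1000 of Lhb in gonadotrope-like cells and 364 and 477 in somatotrope-like cells. Inhbb rose from 0.971 and 1.01 in gonadotrope-like cells to 59.3 and 37.7 in stem-like and 762 and 768 in endothelial-like cells.

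**Figure D3:**
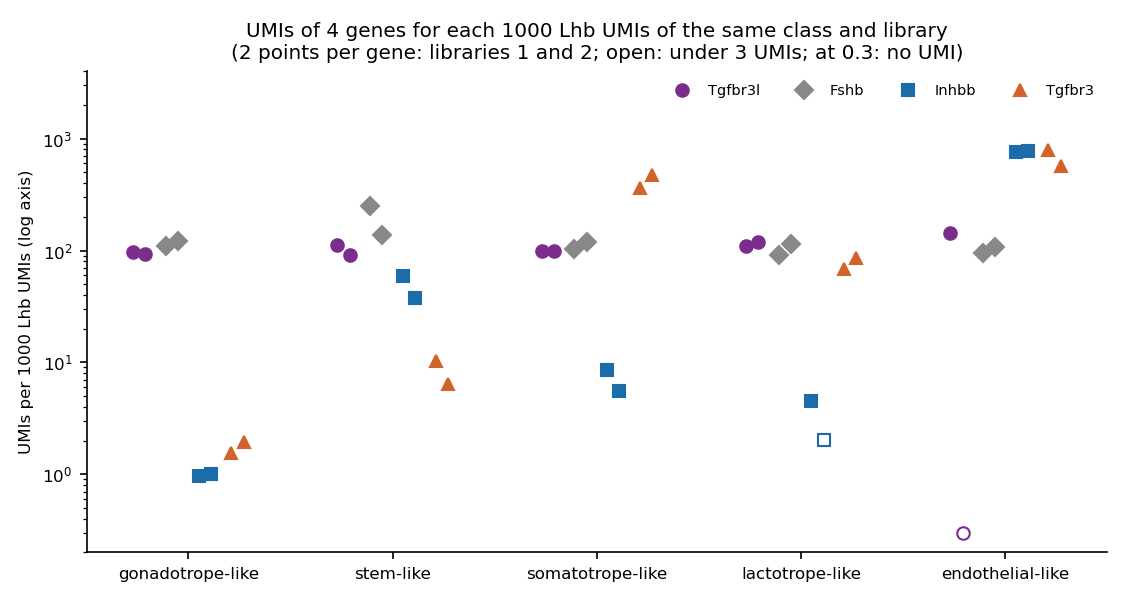
UMIs of Tgfbr3l, Fshb, Inhbb and Tgfbr3 for each 1000 Lhb UMIs of the same class and library (vertical log axis), with 2 points per gene and class for the 2 libraries and open symbols under 3 UMIs. Tgfbr3l stays between 91.1 and 119 in gonadotrope-like, stem-like, somatotrope-like and lactotrope-like cells, while Inhbb and Tgfbr3 differ between classes by over 10 times.

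In stem-like cells the Tgfbr3l and Grem1 UMIs sat in few cells. Of 183 and 181 stem-like cells, 5 and 11 had over 1% of their UMIs from Lhb, as did 89.7% and 91.1% of gonadotrope-like cells. These few cells held 280 of 412 and 448 of 483 Tgfbr3l UMIs and 1 of 3 and 19 of 20 Grem1 UMIs of the class. Without them, the Tgfbr3l level, in CPM of the unscaled total, went from 186 to 63.0 and from 230 to 18.4, whereas Inhbb went from 97.6 to 96.4 and from 95.4 to 95.3 and Inhba from 33.0 to 33.9 and from 42.0 to 43.2. These unscaled values are not on the scale of the CPM above. The cut at 1% Lhb was set after the data were seen. Since Tgfbr3l kept nearly the same ratio to Lhb, its fall under this cut follows from how the cells were chosen.

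Tgfbr3, which encodes betaglycan, the broadly expressed co-receptor for inhibin and TGF-beta (chr5:107106570-107289629, minus strand), was highest in gonadotrope-like cells but was found in every class. Its level was 69.8 and 82.6 CPM in gonadotrope-like, 47.6 and 51.6 in fibroblast-like, 35.5 and 39.5 in somatotrope-like and 33.1 and 27.4 CPM in endothelial-like cells. Gonadotrope-like cells were above fibroblast-like cells (76.2 ± 9.04 against 49.6 ± 2.80 CPM, adjusted p = 0.0178, with 37.7% of tested genes passing), and no later pair of neighbours differed beyond the spread, down to 4.96 ± 1.18 CPM in corticotrope-like cells. Of all 55 pairs 37 passed, among them gonadotrope-like over lactotrope-like cells (log2 fold change 3.63 ± 0.15, adjusted p = 9.45e-39, with 45.1% of tested genes passing). Somatotrope-like cells, the most numerous class, held 59.7% and 59.6% of the Tgfbr3 UMIs and gonadotrope-like cells 16.2% and 18.4%. A UMI was found in 46.4% (40.2 to 52.6) and 59.9% (54.0 to 65.7) of gonadotrope-like cells and in 21.1% (19.6 to 22.6) and 24.5% (22.9 to 26.1) of somatotrope-like cells. The annotation has Gm43422, Gm43423 and Gm42900 on the same strand within or across the gene.

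The activin receptors were low, and of the 3 Acvr2a varied most between classes. Acvr2a, a type II receptor that binds activin (chr2:48814109-48903269, plus strand), was highest in stem-like cells at 15.7 and 11.3 CPM, with 2.47 and 4.95 CPM in gonadotrope-like cells. Pituicyte-like cells, the next class, rested on 5 UMIs (13.2 ± 13.7 CPM, adjusted p = 0.842, with 18.2% of tested genes passing). Against stem-like cells Acvr2a was lower in 8 of the other 10 classes, among them gonadotrope-like (log2 fold change -1.82 ± 0.36, adjusted p = 8.44e-06), somatotrope-like (-1.66 ± 0.25, adjusted p = 1.28e-08) and lactotrope-like cells (-1.87 ± 0.28, adjusted p = 4.81e-09). Of all tested genes, 61.1% passed between stem-like and somatotrope-like cells and 61.1% between stem-like and lactotrope-like cells. No pair without stem-like cells passed for Acvr2a. Acvr2b, the other activin type II receptor (chr9:119402118-119434995, plus strand), ranged from 2.98 ± 4.21 CPM in macrophage-like to 9.22 ± 3.12 CPM in pituicyte-like cells, with 9.52 and 6.50 CPM in gonadotrope-like cells. It passed in 2 of 55 pairs, where gonadotrope-like cells were above lactotrope-like (0.78 ± 0.30, adjusted p = 0.0256) and stem-like cells (0.93 ± 0.39, adjusted p = 0.0413). In these pairs 45.1% and 51.9% of tested genes passed. Pair tests are adjusted over genes and not over the 55 pairs, so these 2 calls are weak. Acvr1b, the type I receptor ALK4 that signals for activin (chr15:101174067-101213684, plus strand), ranged from 1.75 ± 2.48 to 7.33 ± 6.49 CPM, with 3.17 and 4.33 CPM in gonadotrope-like cells, and passed in 0 of 55 pairs. Orc4 overlaps Acvr2a and Gm47320 overlaps Acvr2b on the opposite strand, and Mir6962 lies on the strand of Acvr1b.

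Against the mean of the other 4 hormone classes, gonadotrope-like cells had more of both co-receptors, of Grem1 and of both beta subunits. Of the 9 genes that could be tested, 5 were higher, 0 lower and 4 did not pass, where 35.5% of the 12476 tested genes passed, 2489 higher and 1936 lower. Their median log2 fold change was 2.70, and over all tested genes it was 0.00. The genes were chosen with earlier results of these data known, so this count and median describe them and are no test of the set. The fold change of Grem1 was 8.63 ± 0.27 (log2 ± SE, adjusted p = 3.38e-31), with 84.5 CPM in gonadotrope-like cells and 0.295 CPM on average in the others. Tgfbr3l gave 8.39 ± 0.20 (4157 against 12.8 CPM, adjusted p = 1.55e-11), Inhbb 6.09 ± 0.24 (43.3 against 0.685 CPM, adjusted p = 1.87e-40) and Tgfbr3 2.70 ± 0.13 (76.2 against 16.3 CPM, adjusted p = 1.94e-33). As values with no test, Grem1 was at 7.93 without library 1 and Tgfbr3l at 9.07 without library 2. Values with 1 library left out, here and below, are differences of log2 CPM with a small count added. They are not estimates of the fit, so they can differ from its values whichever library is left out, most of all at low counts.

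Inhba passed with 5 UMIs in gonadotrope-like cells (0.838 against 0.103 CPM, log2 fold change 3.61 ± 1.16, adjusted p = 0.00949), but not at a Leiden resolution of 2 (adjusted p = 0.0670) or with classes clustered on variable genes (adjusted p = 0.0634). Its fold change was 2.88 with doublet calls kept, 2.59 without library 1 and 2.36 without library 2. The genes that did not pass were Inha (log2 fold change -0.28 ± 0.20, adjusted p = 0.290), Acvr2a (-0.31 ± 0.37, adjusted p = 0.574), Acvr2b (0.49 ± 0.30, adjusted p = 0.210) and Acvr1b (-0.24 ± 0.38, adjusted p = 0.687).

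Against the mean of the 5 hormone classes, stem-like cells had more Inhba, Inhbb and Acvr2a and less Inha. Of the 9 tested genes, 5 were higher, 2 lower and 2 did not pass, where 56.9% of the 12476 tested genes passed, 3904 higher and 3195 lower. Their median was 1.57, and over all tested genes it was 0.04, again as a description of genes chosen with earlier results known. Inhba gave a log2 fold change of 7.92 ± 0.41 (27.9 against 0.250 CPM, adjusted p = 6.10e-31) and Inhbb 5.61 ± 0.19 (72.0 against 9.22 CPM, adjusted p = 3.73e-46). The Inhbb mean of 9.22 CPM mixes gonadotrope-like cells at 43.3 CPM with the other hormone classes at 0.268 to 1.24 CPM. The fold change, taken on mean log2 levels, is therefore larger than these CPM give, and stem-like cells were 1.66-fold over gonadotrope-like cells. Acvr2a gave 1.57 ± 0.26 (13.5 against 4.60 CPM, adjusted p = 9.37e-08). Inha was lower, at -1.38 ± 0.24 (6.10 against 16.0 CPM, adjusted p = 6.81e-07). Without library 2, Inhba was at 6.29 and Inha at -1.97, both in the same direction.

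The remaining calls in stem-like cells were not stable. Tgfbr3 was called lower (-0.47 ± 0.20, 12.3 against 28.3 CPM, adjusted p = 0.0352), but 4 alternatives ended that call, with adjusted p from 0.0609 to 0.0929. The mean also mixes directions. Tgfbr3 was higher in gonadotrope-like (76.2 CPM) and somatotrope-like cells (37.5 CPM) than in stem-like cells. It was lower in lactotrope-like (6.13 CPM, edgeR adjusted p = 6.92e-05) and corticotrope-like cells (4.96 CPM, adjusted p = 0.00165). Melanotrope-like cells (16.7 CPM) did not differ from stem-like cells beyond the spread (adjusted p = 0.272). Tgfbr3l (1.96 ± 0.25, adjusted p = 3.63e-05) and Grem1 (2.50 ± 0.67, adjusted p = 0.00126) were called higher against the mean of the log2 levels, although their arithmetic means were lower, at 155 against 842 and 4.03 against 17.1 CPM, since gonadotrope-like cells are among the hormone classes. Both turned in direction without the cells of over 1% Lhb, to -0.38 ± 0.46 (adjusted p = 0.514) and -0.27 ± 1.12 (adjusted p = 0.875). That exclusion was added after the data were seen, and it picks cells by a gene to which Tgfbr3l kept nearly the same ratio. Grem1 was at 0.53 without library 2. Acvr2b (-0.54 ± 0.35, adjusted p = 0.187) and Acvr1b (-0.56 ± 0.40, adjusted p = 0.243) did not pass.

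A list of 58 other genes of the activin and related TGF-beta pathways was compared in the same fit. This list too was chosen with earlier results of these data known, so its counts and medians are a description. In gonadotrope-like cells 4 of the 41 tested were higher, 7 lower and 30 did not pass, with a median log2 fold change of 0.04, where 35.5% of all tested genes passed and their median was 0.00. Among those with at least 20 CPM on the higher side, Tgfbr1, the type I receptor for TGF-beta, was higher (24.1 against 16.2 CPM, 0.59 ± 0.16, adjusted p = 0.00233). Igsf1, an immunoglobulin superfamily membrane protein once proposed as an inhibin-binding protein, was lower (12.8 against 106 CPM, -2.52 ± 0.17, adjusted p = 1.58e-22). It was highest in lactotrope-like cells, at 225 and 216 CPM. Smad1, a mediator of bone morphogenetic protein signals, was also lower (16.7 against 25.2 CPM, -0.49 ± 0.18, adjusted p = 0.0256).

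In stem-like cells 28 of the same 41 genes were higher, 2 lower and 11 did not pass, with a median of 1.21. Of all 12476 tested genes 3904 were higher and 3195 lower, 56.9% together, with a median of 0.04. By group, 8 of 10 ligands and processing enzymes were higher, as were 3 of 6 antagonists, 5 of 9 receptors and 12 of 16 intracellular genes. The largest were Tgfb2, a TGF-beta ligand (55.9 against 0.405 CPM, 7.10 ± 0.24, adjusted p = 4.18e-46), Fstl1, a follistatin-like secreted protein (103 against 1.76 CPM, 6.12 ± 0.16, adjusted p = 1.58e-52), and Tgfbr2, the type II receptor for TGF-beta (28.2 against 2.23 CPM, 4.52 ± 0.26, adjusted p = 4.57e-29). Of these 3, Tgfb2 was highest in stem-like cells, while Fstl1 was at 242 ± 43.3 CPM in fibroblast-like and Tgfbr2 at 109 ± 8.60 CPM in endothelial-like cells. Igsf1 was lower in stem-like cells (18.0 against 87.3 CPM, -1.52 ± 0.16, adjusted p = 4.97e-14). The beta subunit genes Inhbc and Inhbe had 0 UMIs in every class. Foxl2, a transcription factor known from gonadotropes, had 1 UMI in all classes and was not tested. Acvr1c, which encodes the type I receptor ALK7, was highest in lactotrope-like cells (18.4 and 17.1 CPM).

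To set the genes beside Fshb, gonadotrope-like cells of each library were split at the median share of Fshb in the sum of Fshb and Lhb UMIs. Fshb made up 6.47% and 6.94% of that sum in the 131 and 140 Fshb-low cells and 15.02% and 16.45% in the 131 and 141 Fshb-high cells. Lhb differed as well, at 5.88% and 5.83% of all UMIs in Fshb-low and 3.71% and 3.56% in Fshb-high cells. The part of Lhb in the results of this split was not tested. Tgfbr3l was lower in the Fshb-high cells: it was 5329 and 5093 CPM in Fshb-low cells and 4175 and 3784 CPM in Fshb-high cells (log2 fold change -0.39 ± 0.05, adjusted p = 3.12e-11 with edgeR). Of 6 genes tested, 0 were higher and 1 lower, where 1.48% of the 8755 tested genes passed, 43 higher and 87 lower. Grem1 was at 88.4 and 97.5 CPM in Fshb-low and 86.7 and 98.9 CPM in Fshb-high cells (-0.00 ± 0.13, adjusted p = 0.999). Inhbb (-0.13 ± 0.18), Tgfbr3 (-0.09 ± 0.14), Inha (-0.39 ± 0.32) and Acvr2b (-0.34 ± 0.45) did not pass either, with adjusted p from 0.767 to 0.912. Inhba, Fst, Acvr2a and Acvr1b were too low to test, and 0 of the 22 pathway genes tested passed with edgeR. This fit has 1 residual degree of freedom. DESeq2 gave Tgfbr3l a similar size (-0.38 ± 0.11) but an adjusted p of 0.888 (unadjusted p = 3.04e-04).

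The direction for Tgfbr3l depended on how the cells were ordered. Splitting by the share of Fshb in all UMIs put Tgfbr3l at 3785 and 3617 CPM in the low and 5688 and 5127 CPM in the high group (0.55 ± 0.04, adjusted p = 7.45e-08), and Grem1 at 79.9 and 64.2 against 95.4 and 129 CPM (0.66 ± 0.16, adjusted p = 0.0406). In that split Gh took 4.52% and 3.37% of UMIs in the low and 1.70% and 0.789% in the high group, whose part in the result was not tested. Splitting by the share of Lhb in all UMIs, a choice made after the data were seen, gave the widest separation. Tgfbr3l was 3151 and 2728 CPM in Lhb-low and 6367 and 6130 CPM in Lhb-high cells (1.09 ± 0.04, adjusted p = 1.61e-13), and Inhbb was 27.1 and 32.5 against 69.1 and 62.9 CPM (1.13 ± 0.18, adjusted p = 8.65e-04). These 2 of the 6 genes tested were higher and 0 lower, where 4.26% of the 8684 tested genes passed, 246 higher and 124 lower. Gh took 5.12% and 3.30% of UMIs in Lhb-low and 1.22% and 0.843% in Lhb-high cells. The Lhb-high cells held Fshb at 8.27% and 8.85% of the sum of both hormones and the Lhb-low cells at 14.3% and 16.4%. With DESeq2 Tgfbr3l passed in the Lhb split and Inhbb did not (1.15 ± 0.41, adjusted p = 0.553). Tgfbr3 stayed at 71.5 to 91.7 CPM in every group of the 3 splits and passed in none.

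**Figure D4:**
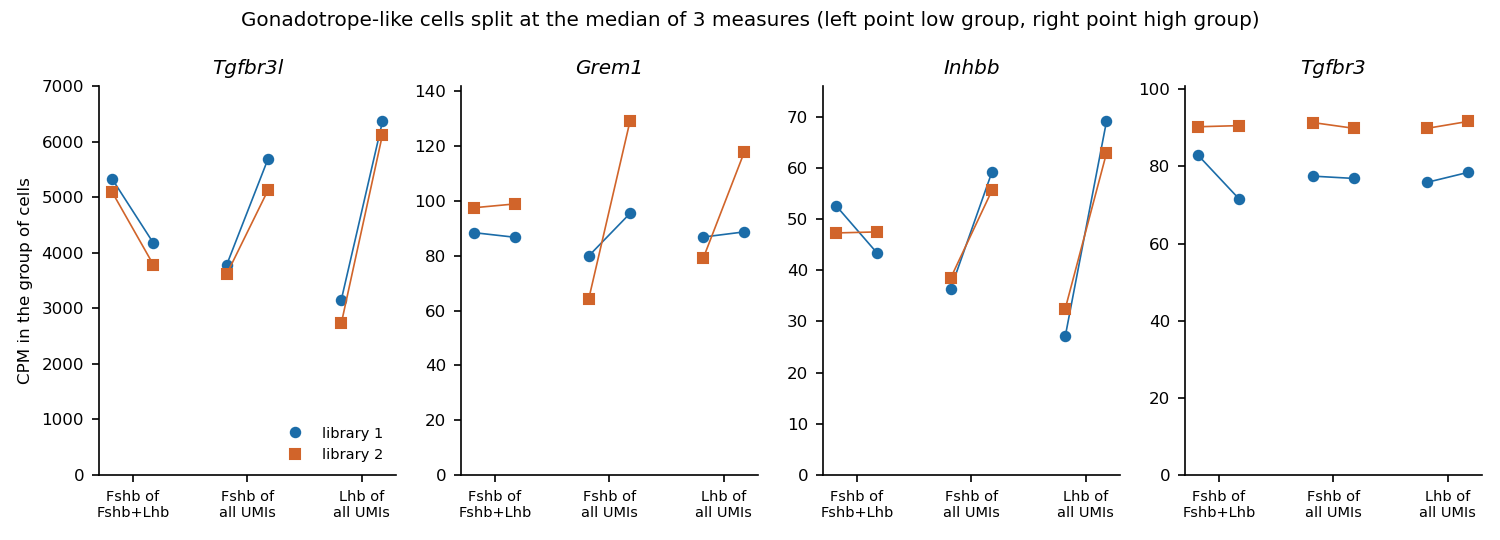
CPM of 4 genes (vertical axes) in gonadotrope-like cells split at the median of 3 measures (horizontal axes), with the low group on the left and the high group on the right of each pair and 1 line per library. Tgfbr3l falls from low to high in the split by Fshb over Fshb plus Lhb and rises in the other splits, and Inhbb rises most with the Lhb share.

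Gene patterns most like those of the 10 genes were sought over the mean log2 CPM of the 11 classes among 4846 genes that were no markers, for the 6 genes with at least 20 CPM in their top class. These correlations share the libraries and are a description. For Tgfbr3l the closest were Grem1 (Pearson r = 0.953), Speer4e (0.950), which belongs to a multigene family whose reads may be split, and Dgkk (0.926). For Grem1 they were Speer4e (0.975), Tgfbr3l (0.953) and Igdcc4 (0.937). For Inhba they were Alox15 (0.942), Gpha2 (0.941) and Maob (0.934), all highest in stem-like cells. Gpha2 encodes the alpha subunit of thyrostimulin. For Inhbb they were Mapk12 (0.894), Mal (0.867) and Fam101b (0.856), all highest in endothelial-like cells. For Tgfbr3 they were Gata2 (0.854), a transcription factor of gonadotropes and thyrotropes, Optn (0.827) and Csrp2 (0.820). For Inha they were Snhg9 (0.963), Pnmal2 (0.961) and Cxxc5 (0.954).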

How the data were processed

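Single-cell 3′ libraries of 2 pools of 3 pituitaries were made on the 10x Chromium v2 platform, per the labels' protocols. Values in the deposited matrix are UMI counts with no normalization. The submitters' processing notes name Cell Ranger, STAR and mm10, without versions. The number ending each barcode was taken as the pool. Barcodes with at least 500 UMIs, 250 genes and at most 20% mitochondrial UMIs were kept (6505 and 7060). Scrublet called 2 and 6 doublets at its own threshold, so cells in the top 7.6% of scores (494 and 537) were removed, which left 6011 and 6523. Cells were clustered with scanpy 1.11.5 on 94 markers (12 components, 15 neighbours, Leiden at resolution 1) and named from at least 3 markers. Clustering on 2000 variable genes gave the same class for 96.1% of cells named in both.

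Counts were summed per class and library and tested with edgeR 4.0.16 (quasi-likelihood, robust, TMM, filterByExpr, library as a block, Benjamini-Hochberg at 0.05) in 1 fit of 22 columns, leaving out 84 clustering markers. The split of gonadotrope-like cells was fitted on 4 columns without Fshb and Lhb. CPM are of the TMM-scaled total. Log2 fold changes use the mean log2 level of the classes compared. All 10 genes are named. List genes are the 3 highest and 3 lowest past the test with at least 20 CPM on the higher side, of which fewer existed for 3 of the 4 ends, and likeness names the 3 highest correlations among genes of at least 50 CPM. The genes and lists were chosen with earlier results of these data known. DESeq2 1.42.0, other scalings, filters, clusterings and splits were tried as alternatives. On simulated data the class fits recovered 100% of 200 genes changed 2-fold in tests of 12476 genes, and the Fshb split 74.0% among 8755. Changed genes were drawn only from those with an expected count of at least 3 in the smallest column, with the same mean in all classes. In the class fits that column had 107386 UMIs, so their share does not cover genes as low as Inha and the activin receptors. Positions are from GENCODE on mm10. Upstream windows are from RefSeq on GRCm38.p6.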

Additional observations from a re-analysis of the deposited data

How the results depend on the processing

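The number of genes called in the 2 class comparisons stayed within 1.5 times of its value under every alternative that gave a test. Among values of single members, 109 of 116 in the gonadotrope-like comparison and 105 of 116 in the stem-like comparison counted as unchanged. A tested value had to keep its side of the threshold and, if called, its direction, whatever its size. An untested value with 1 library left out had to lie no further from the main value than the SD of the 2 such values. The exceptions were the Inhba, Tgfbr3, Tgfbr3l and Grem1 calls given above and values with 1 library left out. Grem1 in gonadotrope-like cells ranged from 7.93 to 8.31 and Tgfbr3l in stem-like cells reached 2.32 when a library was left out, as values with no test. These are differences of log2 CPM with a small count added, and the main values are estimates of the fit. The part of this change of estimate in the shifts was not separated from that of the library. Without cells of over 1% Lhb, an exclusion added after the data were seen, stem-like Grem1 went to -0.27 and Tgfbr3l to -0.38.

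The Fshb split, with 43 genes higher and 87 lower, was the least stable. DESeq2 called 0 higher and 1 lower, against 15 and 28 at an unadjusted p under 0.05, with no cause tested. Without the replicate block it was 13 and 12, with the highest against the lowest cells (a 1 in 3 cut at each end) 7 and 16, and with the Fshb share of all UMIs 93 and 64. Under that last split Grem1 was 0.66 and Tgfbr3l 0.55. The library block pairs both groups of cells from the same pool, and changed no member's call. In the Lhb split, 246 genes were higher and 124 lower. DESeq2 called 31 and 9, and without cells of over 30% Gh 337 were higher and 213 lower. The cause was not tested. Thinning set the shares of cells: without it they were 98.9% for Tgfbr3l, 38.7% for Grem1 and 34.1% for Inhbb in gonadotrope-like cells and 54.7% for Inhbb in stem-like cells, and with it 92.6%, 5.84%, 4.60% and 9.88%. Fst, Inhba outside stem-like cells and the receptors rest on few UMIs, so class differences in them are limited by depth.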

Other observations

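At a Leiden resolution of 2, a small thyrotrope-like class of 10 and 32 cells separated, led by Tshb, the beta subunit of thyroid-stimulating hormone. It held 1 and 4 Inha UMIs and 1 and 2 Grem1 UMIs, and 0 UMIs of Inhba, Inhbb and Fst in both libraries. With 100736 and 215587 UMIs in all, 0 UMIs of a gene in these cells allows up to 36.6 and 17.1 CPM of the unscaled total (upper end of the exact Poisson 95% interval, counting error only).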
